A study of Mus musculus with 7 samples.

Results

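The 9 genes described here, of 38124 in the count table, are transcription factors and junction or centrosome proteins that act when cells leave an epithelium. The rule that picks them names gene families and known roles and uses no measured value. They comprise the 3 Snail factors *Snai1*, *Snai2* and *Snai3*, the 2 Scratch factors *Scrt1* and *Scrt2*, the 2 Zeb factors *Zeb1* and *Zeb2*, the centrosome gene *Akna*, and *Plekha7*, which encodes a protein of the apical junction belt. Their mRNA was measured by RNA-Seq in cells of the embryonic mouse neocortex at E15.5, collected 48 hr after in utero electroporation at E13.5. All embryos carried a single copy of *Tis21*-CreERT2 and received tamoxifen, which turns on Cre in the apical progenitors that generate basal progenitors and in the progeny of those cells. The control group (3 libraries) received a plasmid from which Cre removes GFP to switch on nuclear RFP. The Sox9 group (4 libraries) received the same plasmid with the *Sox9* coding sequence ahead of the RFP. Cells with high RFP were sorted in both groups, and cortices of several embryos were pooled for each experiment, so a library is not 1 animal.

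In the developing cortex, basal progenitors and newborn neurons detach from the ventricular surface by giving up their apical adherens junction, a step called delamination. Snail and Zeb factors are zinc finger repressors that bind E-box sequences and lower E-cadherin and other junction genes in many epithelia during epithelial-mesenchymal transition (EMT). Scratch factors belong to the Snail superfamily and are made mostly in neurons, where they limit cadherin-based adhesion of cells that are leaving. *Akna* encodes a protein of the mother centriole that anchors microtubules and favours exit from the ventricular zone, and *Plekha7* encodes a protein that ties the zonula adherens to microtubules.

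The 5 Snail and Scratch genes start their coding sequence with nearly the same bases, which encode the repressor motif at the amino end of these proteins. The first 27 coding bases are printed below because they show how the families are related, and because near-identical genes can share reads. Capitals mark the 19 bases that are identical in all 5 genes, read 5′ to 3′ on the coding strand from the GENCODE transcripts of GRCm38.
*Snai1* (chr2:167538290-167538316, plus strand): ATGCCgcGcTCCTTCCTGGTcAggAag
*Snai2* (chr16:14705974-14706000, plus strand): ATGCCgcGcTCCTTCCTGGTcAagAaa
*Snai3* (chr8:122460588-122460614, minus strand): ATGCCgcGcTCCTTCCTGGTgAaaAcg
*Scrt1* (chr15:76521679-76521705, minus strand): ATGCCcaGgTCCTTCCTGGTtAagAag
*Scrt2* (chr2:152082050-152082076, plus strand): ATGCCgcGtTCCTTCCTGGTgAagAag

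Against *Snai1*, 25 of the 27 bases were identical in *Snai2*, 24 in *Scrt2*, 23 in *Snai3* and 22 in *Scrt1*. Over the whole coding sequence, *Scrt1* and *Scrt2* were the closest pair with 78.7% identical bases, and *Snai1* and *Snai2* shared 70.04%. None of the 63059 stretches of 75 bases in the transcripts of the 9 genes, the length of a read, occurred in more than 1 of them (0 shared). Among the 9, a full-length read with no mismatch therefore matched a single gene.

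The libraries held 4429704 to 12907778 counts on genes. *Sox9* itself, the gene that the construct carries, showed no higher level under the Sox9 label. It had 34.6, 89.2 and 67.9 CPM (reads on the gene relative to the TMM-scaled library size) in control replicates 1, 2 and 4, and 50.8, 41.1, 31.0 and 37.1 CPM in Sox9 replicates 1 to 4. Its log2 fold change was -0.68 (adjusted p = 0.0493, edgeR). Other genes did separate the groups, among them *Eomes*, a gene of basal progenitors, with 1195 reads in the controls and 246 in Sox9, and *Olig2*, a gene of oligodendrocyte precursors, with 2 and 49. *Sox9* mRNA alone thus neither bears out nor refutes the labels, and every direction below refers to the libraries as labelled. Markers of other cell types also differed between the groups. The 12 radial glia markers summed to 657 to 1295 CPM in the controls, against 317 to 454 CPM under the Sox9 label, while 7 markers of oligodendrocyte precursors summed to 0.814 to 1.56 CPM and 9.73 to 27.9 CPM. The 10 markers of projection neurons had the highest sums, 13127 to 16195 CPM and 11829 to 13931 CPM. In bulk RNA, fewer cells of a type and less RNA per cell cannot be told apart.

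No member was called different between the groups. Of the 9 genes, 7 passed the filter on low counts, and 0 of the 7 were higher and 0 lower at an adjusted p under 0.01 in edgeR's quasi-likelihood test, where 11.3% of the 16522 genes tested were higher and 3.43% lower. DESeq2 also called 0 members, against 18.4% of the genes it tested, and limma-trend after cyclic loess scaling called 0, against 3.92%. At an unadjusted p under 0.05, 2 of the 7 passed, *Snai1* and *Zeb1*, against 44% of all genes. Only *Snai1* passed at an adjusted p under 0.05 (32.7% of all genes passed it, 21.9% higher), and it met the filter only through Sox9 replicates 2, 3 and 4, being dropped from the test when any of these was left out. The 2 groups of libraries overlapped in CPM for all 9 members, where 39.3% of the genes tested had groups that did not overlap. The median log2 fold change of the 7 members was 0.07, with 4 above 0, and that of all genes tested was -0.00.

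**Figure D1:**
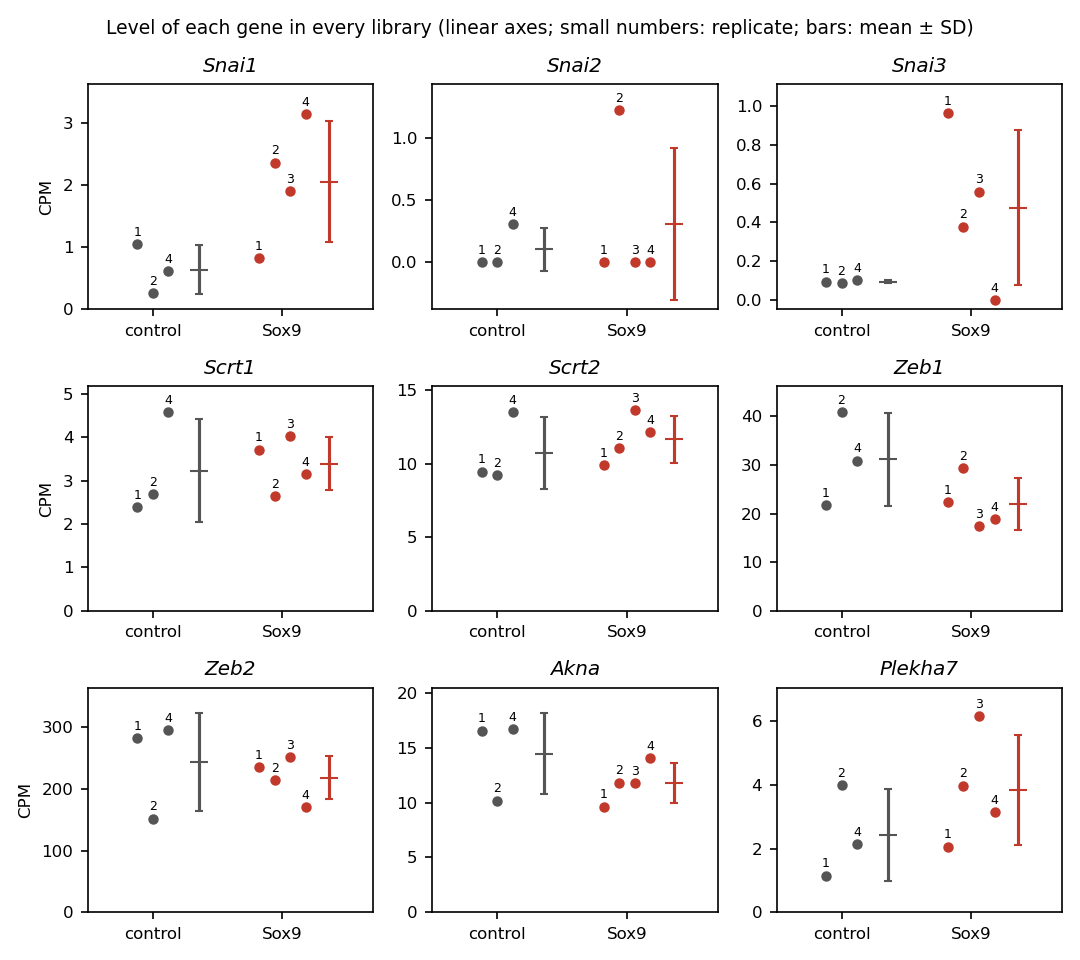
CPM (vertical axes, linear, 1 panel for each member) in the 3 control and 4 Sox9 libraries, with a point and its replicate number for each library and bars for the mean ± SD of each group. The 2 groups overlap for every member, from *Snai2*, with no count in 5 libraries, to *Zeb2*, at 152 to 295 CPM.

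*Snai1*, at chr2:167538195-167542814 on the plus strand (GRCm38, ENSMUSG00000042821), encodes the Snail factor best known for repressing E-cadherin, and had the largest fold change of the 7 members tested. Control replicates 1, 2 and 4 had 11, 3 and 6 reads, and Sox9 replicates 1 to 4 had 6, 25, 17 and 15. In CPM these were 1.05, 0.261 and 0.610 in the controls, against 0.824, 2.36, 1.90 and 3.15 under the Sox9 label. The 3 highest values all lay in the libraries labelled Sox9, but Sox9 replicate 1 was below control replicate 1, so the groups overlapped. Mean CPM was 0.641 ± 0.396 (SD, n = 3) in the controls and 2.06 ± 0.970 (SD, n = 4) in Sox9. The log2 fold change was 1.65 (SE 0.58, 95% interval 0.41 to 2.89) with an adjusted p of 0.0416 in edgeR, which misses the threshold of 0.01. With no filter it was 1.58 (adjusted p = 0.0346). The exact permutation test over all 35 assignments of libraries to groups, 2-sided, gave p = 0.0857 (0.514 adjusted over 8 members), where the smallest p it allows is 0.0286. Other genes of as low an expression were also mostly higher in the libraries labelled Sox9. The genes tested were cut into 10 equal bins by mean expression. The 1652 genes in the bin of *Snai1* had a median log2 fold change of 1.39. Cyclic loess scaling takes out such a trend with expression. Used with limma-trend on log2 CPM, which changes the scaling and the test together, it gave *Snai1* a log2 fold change of 0.14 (adjusted p = 0.895). The cause of the drop from 1.65 was not tested. Without control replicate 2, the adjusted p was 0.148 and the log2 fold change 1.28.

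The promoter of *Snai1* is shown because Snail and Zeb factors bind the E-box CAGGTG, which is also the letters of CACCTG on the other strand, and Snail is known to bind its own promoter. The 300 bases from 250 before to 50 after the start (RefSeq, GRCm38.p6, chr2:167537945-167538244, plus strand) are printed with the match in capitals.
*Snai1* promoter: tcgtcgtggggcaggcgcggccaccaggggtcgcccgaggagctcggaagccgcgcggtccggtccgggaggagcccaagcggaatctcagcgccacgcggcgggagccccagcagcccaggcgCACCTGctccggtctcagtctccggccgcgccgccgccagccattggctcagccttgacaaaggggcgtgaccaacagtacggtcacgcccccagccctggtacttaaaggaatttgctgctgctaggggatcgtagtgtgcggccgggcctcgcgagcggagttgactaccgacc

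Its only match to CAGGTG was on the opposite strand, with its first base at position -126 from the start, and it held no CAGGTA. Of 32851 promoters of that length, 20.2% held CAGGTG and 12.0% held CAGGTA on either strand. Promoters of 3 of the 9 members were in the table, and those of *Zeb2* and *Akna* held neither motif. These are matches of letters, and no binding was measured.

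*Snai2* (chr16:14705852-14709385, plus strand, ENSMUSG00000022676), which encodes Slug, a factor of neural crest and mesenchyme, was detected in only 2 libraries. It had 0, 0 and 3 reads in control replicates 1, 2 and 4, and 0, 13, 0 and 0 in Sox9 replicates 1 to 4. All 13 reads of the Sox9 group came from replicate 2, at 1.23 CPM. Of the 7 libraries, 5 had no read, and a count of 0 allows a level of up to 3 counts, which is 0.261 to 0.629 CPM over the 7 libraries. The ratio of the summed counts, scaled by library size, was 4.36 (exact binomial 95% interval 1.20 to 23.9), an interval that covers counting error only and not the spread between libraries. Over the libraries, the exact permutation p was 1.

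*Snai3* (chr8:122454208-122460733, minus strand, ENSMUSG00000006587), the Snail factor found mostly in muscle and blood cells, had 1 read in each control library and 7, 4, 5 and 0 in Sox9 replicates 1 to 4. The 3 highest CPM values, 0.961, 0.378 and 0.559, lay in the libraries labelled Sox9, and the lowest was 0 in Sox9 replicate 4, the library with the fewest counts. The ratio of summed counts was 5.37 (95% interval 1.54 to 28.8, counting error only), and the exact permutation p over the libraries was 0.229 (0.514 adjusted over 8 members). The filter removed *Snai2* and *Snai3* from the test. In edgeR with no filter, the log2 fold change was 1.69 for *Snai2* (SE 1.12, adjusted p = 0.285) and 2.15 for *Snai3* (SE 1.08, adjusted p = 0.138). Snail factors are also made in mesenchymal and blood cells, whose markers did not all go one way. The 10 markers of mural and meningeal cells summed to 9.37 to 11.7 CPM in the controls, against 17.5 to 35.4 CPM under the Sox9 label, with none of the 10 at 0 in all libraries and 2 of 7 tested markers higher. Sox9 replicate 2, which held all *Snai2* reads of its group, had the lowest of these Sox9 sums. The 9 lymphocyte markers summed to 12.3 to 18.5 CPM and 20.2 to 26.0 CPM, with none at 0 in all libraries and 2 of 4 tested markers higher. Among all genes 11.3% were higher, and with cyclic loess scaling and limma-trend 0 markers of either list were called. Sox9 replicate 4, with no *Snai3* read, had the highest of those sums. The sums of the microglia markers (11.4 to 41.2 and 17.6 to 71.3 CPM) and of the erythroid markers (2.10 to 24.7 and 14.6 to 94.8 CPM) overlapped between the groups, and so did those of the 27 mesenchymal genes of EMT (548 to 651 and 351 to 580 CPM). Their part in the counts of the 3 Snail genes was not tested.

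The 2 Scratch genes had reads in all libraries, and neither passed the test. *Scrt2* (chr2:152081529-152095802, plus strand, ENSMUSG00000060257) had 9.46, 9.21 and 13.53 CPM in control replicates 1, 2 and 4 and 9.89, 11.1, 13.6 and 12.2 CPM in Sox9 replicates 1 to 4. The means were 10.7 ± 2.42 (SD, n = 3) and 11.7 ± 1.60 (SD, n = 4), and the log2 fold change was 0.12 (SE 0.23, 95% interval -0.37 to 0.62, adjusted p = 0.714, edgeR). The interval allows a ratio from 0.775 to 1.53. *Scrt1* (chr15:76516203-76522499, minus strand, ENSMUSG00000048385) was lower in read number, with 25, 31 and 45 reads in the controls and 27, 28, 36 and 15 in Sox9. Its CPM were 2.39, 2.69 and 4.58 in the controls and 3.71, 2.65, 4.02 and 3.15 in Sox9, so the control group held both the lowest and the highest library. The log2 fold change was 0.07 (SE 0.37, 95% interval -0.71 to 0.85, adjusted p = 0.895, edgeR), with an interval of the ratio from 0.613 to 1.81. The sign of *Scrt1* was not fixed, since it was -0.01 with DESeq2 and -0.50 after cyclic loess scaling.

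*Zeb2* (chr2:44983632-45117395, minus strand, ENSMUSG00000026872), which in postmitotic cortical neurons controls the timing of signals sent back to progenitors, was by far the most abundant member. It had 2952, 1747 and 2900 reads in control replicates 1, 2 and 4, and 1709, 2264, 2245 and 813 reads in Sox9 replicates 1 to 4. In CPM these were 282, 152 and 295 in the controls and 235, 214, 251 and 170 in Sox9. Both ends of the range lay in the control group, with control replicate 2 below every Sox9 library. The means were 243 ± 79.2 (SD, n = 3) and 218 ± 34.8 (SD, n = 4), and the log2 fold change was -0.16 (SE 0.19, 95% interval -0.57 to 0.26, adjusted p = 0.566, edgeR). The 95% interval of the ratio was 0.673 to 1.19. After cyclic loess scaling the sign turned to 0.14.

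*Zeb1* (chr18:5591860-5775467, plus strand, ENSMUSG00000024238) keeps progenitors in the germinal zone in several parts of the brain and falls as neurons mature. Its CPM were 21.7, 40.8 and 30.9 in control replicates 1, 2 and 4, and 22.4, 29.3, 17.4 and 18.9 in Sox9 replicates 1 to 4. The 2 highest libraries were controls and the 2 lowest were Sox9, but control replicate 1 lay among the Sox9 libraries. The means were 31.2 ± 9.57 (SD, n = 3) and 22.0 ± 5.29 (SD, n = 4). The log2 fold change was -0.50 (SE 0.23, 95% interval -0.98 to -0.01) with an unadjusted p of 0.0465 and an adjusted p of 0.108 in edgeR, and the exact permutation p was 0.171 (0.514 adjusted over 8 members). Control replicates 1 and 2 moved the difference most. Without control replicate 2 it was -0.25 (adjusted p = 0.478), and without control replicate 1 it was -0.72 (adjusted p = 0.0299).

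The 2 Zeb genes did not follow each other across the libraries. The ratio of *Zeb1* to *Zeb2* CPM was 0.0769, 0.269 and 0.105 in control replicates 1, 2 and 4 and 0.0954, 0.137, 0.0695 and 0.111 in Sox9 replicates 1 to 4. Control replicate 2 had the highest ratio and the other 6 libraries lay between 0.0695 and 0.137. The means were 0.150 ± 0.104 (SD, n = 3) and 0.103 ± 0.0282 (SD, n = 4), a difference smaller than the spread of the controls (exact permutation p = 0.543). Genes on the opposite strand overlap exons of both. *Gm10125* shares 198 exon bases with *Zeb1* and had 37 reads in the controls and 112 in Sox9, and *Zeb2os* shares 653 exon bases with *Zeb2* and had 32 and 18. The methods describe no step that marks strand, so reads of the shared bases cannot be assigned to either gene with certainty.

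*Akna* (chr4:63367125-63403354, minus strand, ENSMUSG00000039158) had 16.5, 10.2 and 16.7 CPM in control replicates 1, 2 and 4, and 9.61, 11.8, 11.7 and 14.1 CPM in Sox9 replicates 1 to 4. Control replicates 1 and 4 were above every Sox9 library, while control replicate 2 was above only Sox9 replicate 1. The means were 14.5 ± 3.72 (SD, n = 3) and 11.8 ± 1.81 (SD, n = 4), with a log2 fold change of -0.30 (SE 0.23, 95% interval -0.79 to 0.20, adjusted p = 0.349, edgeR). The exact permutation p was 0.257 (0.514 adjusted over 8 members).

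*Plekha7* (chr7:116123485-116308376, minus strand, ENSMUSG00000045659) was low, with 12, 46 and 21 reads in control replicates 1, 2 and 4, and 15, 42, 55 and 15 in Sox9 replicates 1 to 4. Its CPM were 1.15, 4.00 and 2.14 in the controls and 2.06, 3.97, 6.15 and 3.15 in Sox9. The highest library was Sox9 replicate 3 and the lowest was control replicate 1, but control replicate 2 exceeded all Sox9 libraries except replicate 3. The means were 2.43 ± 1.45 (SD, n = 3) and 3.83 ± 1.73 (SD, n = 4). The log2 fold change was 0.67 (SE 0.47, 95% interval -0.33 to 1.66, adjusted p = 0.292, edgeR), next to a median of 0.58 for the 1652 genes in the same expression bin. Without control replicate 2 it was 1.24 (adjusted p = 0.0978), and without control replicate 1 it was 0.31.

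**Figure D2:**
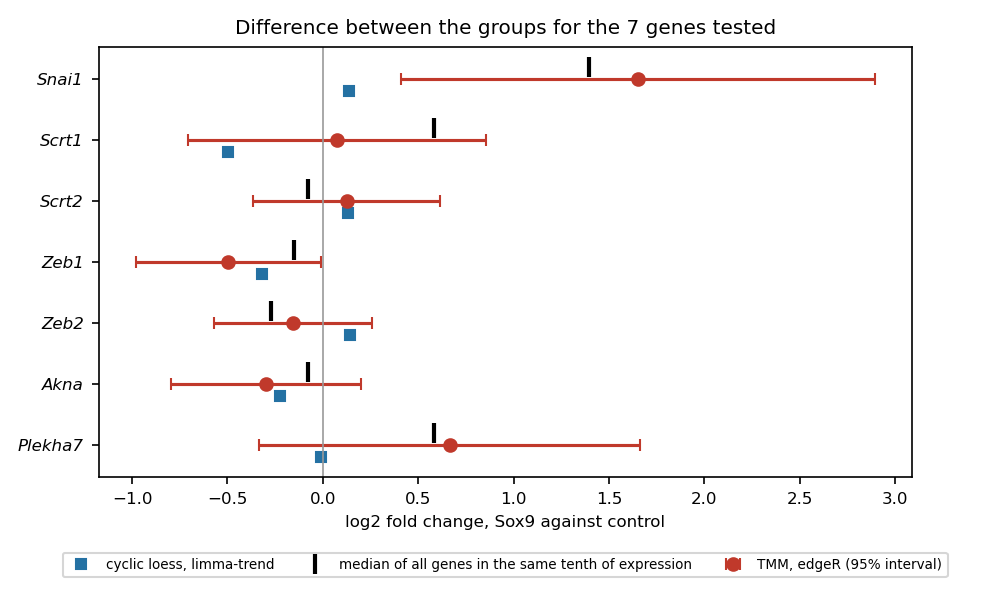
Log2 fold change, Sox9 against control (horizontal axis), of the 7 members tested, with points and 95% intervals from edgeR, squares after cyclic loess scaling and ticks for the median of all genes in the same expression bin. *Snai1* lies at 1.65 beside a tick at 1.39 and a square at 0.14, and the intervals of *Scrt1*, *Scrt2*, *Zeb2*, *Akna* and *Plekha7* include 0.

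Control replicate 2 differed from the other controls in several members at once. It had the highest *Zeb1* and *Sox9* of the 7 libraries, the highest *Plekha7* of the controls, and the lowest *Zeb2*. It also had the highest summed radial glia markers, 1295 CPM against 657 and 1097 CPM in the other controls. Without it, *Zeb2* had a log2 fold change of -0.40 (adjusted p = 0.0747) and *Akna* of -0.49 (adjusted p = 0.150), and no member passed 0.01.

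**Figure D3:**
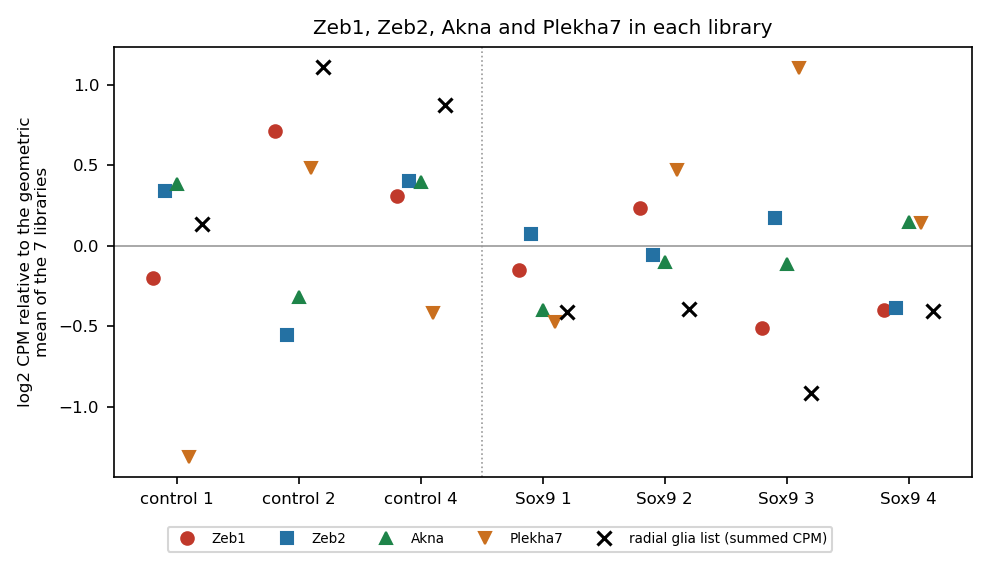
Log2 CPM of *Zeb1*, *Zeb2*, *Akna* and *Plekha7* and of the summed radial glia markers in each library (horizontal axis), relative to the geometric mean of the 7 libraries (vertical axis). In control replicate 2, *Zeb1* (40.8 CPM) and the radial glia sum (1295 CPM) are at their highest and *Zeb2* (152 CPM) is at its lowest.

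Between genes, levels were compared as CPM per kilobase of exon, averaged over the 7 libraries. Whether the counts include reads in introns is not given, and if they do, this scale overstates genes with long introns. *Zeb2* was first at 11.5, above the range of every other member. It was followed by *Scrt2* at 3.32, *Zeb1* at 2.53, *Akna* at 2.25, *Snai1* at 0.895 and *Scrt1* at 0.756, where the ranges of neighbours over the 7 libraries overlapped. The range of *Plekha7*, at 0.250, did not overlap that of *Scrt1*, and it overlapped that of *Snai3* at 0.192, whose range overlapped that of *Snai2* at 0.108. Averaged over the 7 libraries, 4 members had a level of at least 1. *Snai1* had a level of 0.395 ± 0.244 (SD, n = 3) in the controls and of 1.27 ± 0.598 (SD, n = 4) in Sox9. It therefore stood below *Scrt1* (0.735 and 0.772) in the control means and above it in the Sox9 means. In the deposited FPKM the order differed. *Zeb1* had rank 3 per kilobase of exon and rank 6 by FPKM (0.139), whereas *Scrt1* had ranks 6 and 3 (0.563). The length implied by counts and FPKM lay near the whole gene span for the members other than *Scrt1*, where it was 5.92 kb, between its exonic length and its span. For *Zeb1* the span is 183608 bases and its exons cover 10266, so its level per kilobase of exon was 18.2 times its FPKM, against 1.34 times for *Scrt1*, whose span of 6297 bases holds 4380 exonic bases.

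**Figure D4:**
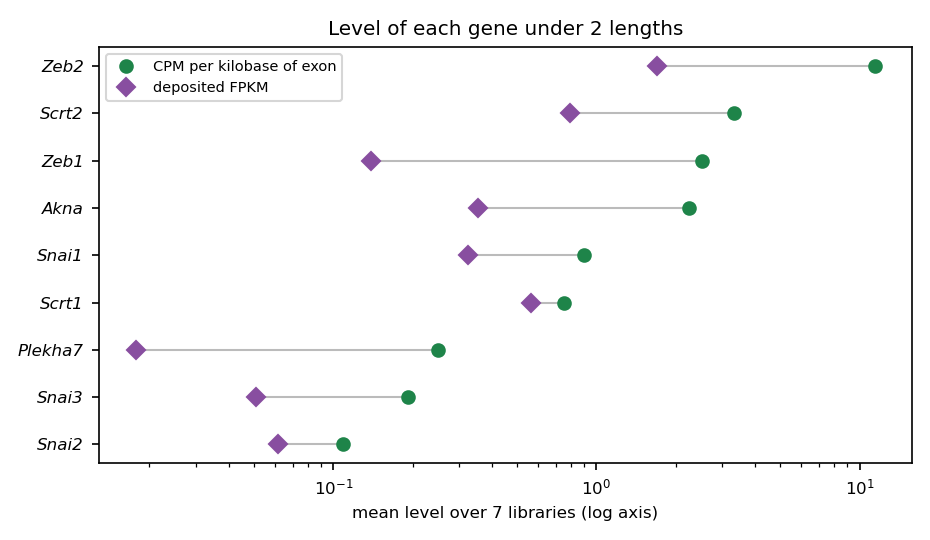
Mean level over the 7 libraries (horizontal axis, log scale) of each member as CPM per kilobase of exon (circles) and as deposited FPKM (diamonds), with members in the order of the first. *Zeb2* is highest on both scales, with means of 11.5 and 1.71, and *Zeb1* moves from rank 3 to rank 6 by FPKM.

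Genes that act with these factors were counted in 9 lists, beside the background of 11.3% higher and 3.43% lower among all genes. That background changed with expression. The median log2 fold change of all genes fell from 1.69 in the lowest of the 10 expression bins to -0.20, -0.24 and -0.27 in bins 8, 9 and 10. In these last bins 87, 130 and 135 of about 1652 genes were called lower. Snail and Zeb factors silence genes through corepressors and chromatin enzymes. Of 18 such genes tested, 0 were higher and 3 lower, with a median log2 fold change of -0.28. The 3 were the histone deacetylase *Hdac1* (-0.67, SE 0.14), the histone methyltransferase *Ezh2* (-0.48, SE 0.12) and the demethylase *Kdm1a* (-0.46, SE 0.11). None of the 3 was called with cyclic loess scaling and limma-trend (adjusted p = 0.0632, 0.211 and 0.207). Snail protein is also held low by kinases and ubiquitin ligases, and of 17 such genes 0 were called in edgeR, with 4 at an unadjusted p under 0.05 and 1 called by DESeq2. Their median was -0.26, and *Gsk3b*, which marks Snail for breakdown, had a log2 fold change of -0.33 (adjusted p = 0.0342). Protein levels were not measured.

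Among 14 proneural and progenitor factors that act in delamination, 0 were higher and 4 lower, and the median was -0.19. They were *Neurod4* (-2.88, SE 0.53), *Eomes*, the Tbr2 gene that marks basal progenitors (-2.25, SE 0.23), the radial glia factor *Pax6* (-1.15, SE 0.23) and *Btg2*, which is *Tis21* itself (-0.81, SE 0.14). *Eomes* had 37.5 ± 10.7 CPM (SD, n = 3) in the controls and 7.86 ± 1.63 CPM (SD, n = 4) in Sox9, with no overlap between the groups (adjusted p = 4.87e-05, edgeR). Among 32 apical junction and polarity genes, 2 were higher and 5 lower, with a median of -0.13. The lower genes were the α-catenin gene *Ctnna1* (-1.42, SE 0.20), the spindle orientation gene *Gpsm2* (-1.31, SE 0.23), *Arhgap11a* (-1.21, SE 0.27), the polarity gene *Mpp5* (-0.89, SE 0.22) and *Lix1* (-0.50, SE 0.12). The higher genes were E-cadherin, *Cdh1* (2.03, SE 0.50), and the tight junction gene *Ocln* (1.99, SE 0.42). Of these 32 genes, 0 were called higher and 1 lower, *Ctnna1*, with cyclic loess scaling and limma-trend.

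*Cdh1*, the textbook target of Snail and Zeb repression, was higher in the libraries labelled Sox9, with 4.07 ± 0.805 CPM (SD, n = 4) against 0.975 ± 0.782 CPM (SD, n = 3) in the controls and no overlap between the groups (adjusted p = 0.00836, edgeR). It rested on 32 reads in the controls and 131 in Sox9, and after cyclic loess scaling it was no longer called (log2 fold change 1.16, adjusted p = 0.112, limma-trend). Of the 23 genes of the epithelial list, 14 passed the filter, and of these 11 were higher and 0 lower. A gene near 0 in the controls could pass only through the Sox9 libraries where it was high, so this count says nothing of the list as a whole. Among the 9 not tested, *Cldn4* had no read. *Rab25* (0.269 CPM in the controls, 0.0623 CPM in Sox9) and *Cldn7* (0.257 and 0.218 CPM) had the lower mean in Sox9. *Pkp3* (0.0629 and 1.13 CPM), *Krt8* (0.167 and 0.776 CPM), *Ovol2* (0.192 and 0.559 CPM), *Esrp2*, *Ovol1* and *Krt18* had the higher mean in Sox9. These untested genes were named after their values were seen. *Krt19* (4.28, SE 0.76), a keratin, and *Grhl3* (3.08, SE 0.63), a grainyhead factor of epithelia, were among the 11 tested genes called higher. So were the desmosome gene *Pkp2* (2.29, SE 0.38), *Dsp*, *Grhl1*, *Grhl2*, *Esrp1*, *Marveld2*, *Marveld3* and *Cldn3*. Most of them were at a few CPM, while *Cldn3* had 20.3 CPM in the controls and 35.3 CPM in Sox9. After cyclic loess scaling with limma-trend, 2 of them were called, *Pkp2* and *Cldn3*. Choroid plexus markers, also epithelial, summed to 1.24 to 1.56 CPM in the controls and 9.17 to 14.1 CPM in Sox9, and none of the 6 was at 0 in all libraries. Of the 6, 3 passed the filter, 2 of them higher, and with cyclic loess scaling and limma-trend 0 were called. Their part in the epithelial genes was not tested. Of 27 mesenchymal genes, 18 passed the filter and 3 were higher, *Tgfb1* (3.03, SE 0.61), *Col1a1* (2.66, SE 0.45) and *Prrx1* (1.502, SE 0.36). *Tgfb1* (0.250 CPM) and *Col1a1* (0.786 CPM) were low in the controls and could pass the filter through the Sox9 libraries alone. The count of higher genes therefore does not stand for this list either. In the same list the intermediate filament gene *Vim* was lower (-1.17, SE 0.16), and the median was -0.08. With cyclic loess scaling and limma-trend, *Vim* was still called, and the log2 fold changes of *Tgfb1* (0.74, adjusted p = 0.316), *Col1a1* (1.61, adjusted p = 0.0138) and *Prrx1* (0.88, adjusted p = 0.114) were not.

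Partners of Plekha7 at the junction belt had a median of 0.09, with 2 of 10 higher and 0 lower. The 2 were the paracingulin gene *Cgnl1* (2.33, SE 0.44) and the tetraspanin gene *Tspan33* (2.05, SE 0.51). Their means were 0.717 and 0.628 CPM in the controls and 3.66 and 2.65 CPM in Sox9. Genes this low in the controls could pass the filter through the Sox9 libraries alone, so the 2 calls are not read against the share of all genes. Neither was called with cyclic loess scaling and limma-trend (1.08, adjusted p = 0.0807, and 0.61, adjusted p = 0.344). Of 20 mother centriole and microtubule genes that work with Akna, 0 were higher and 2 lower, *Cntrl* (-0.84, SE 0.17) and the γ-tubulin gene *Tubg1* (-0.55, SE 0.11), with a median of -0.22. Among 10 genes described downstream of Zeb2 in cortex, *Ninj1* (1.62, SE 0.32) and *Wnt5a* (1.61, SE 0.39) were higher and *Sfrp1*, a secreted Wnt antagonist (-1.15, SE 0.20), was lower, and *Zeb2* itself did not pass the test. Over the 9 lists, with a gene in more than 1 list counted once, TMM and edgeR gave 19 higher and 16 lower calls. With cyclic loess scaling and limma-trend, which change the scaling and the test together, the lists held 2 higher and 4 lower calls. None of the latter lay in the lists of this paragraph.

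**Figure D5:**
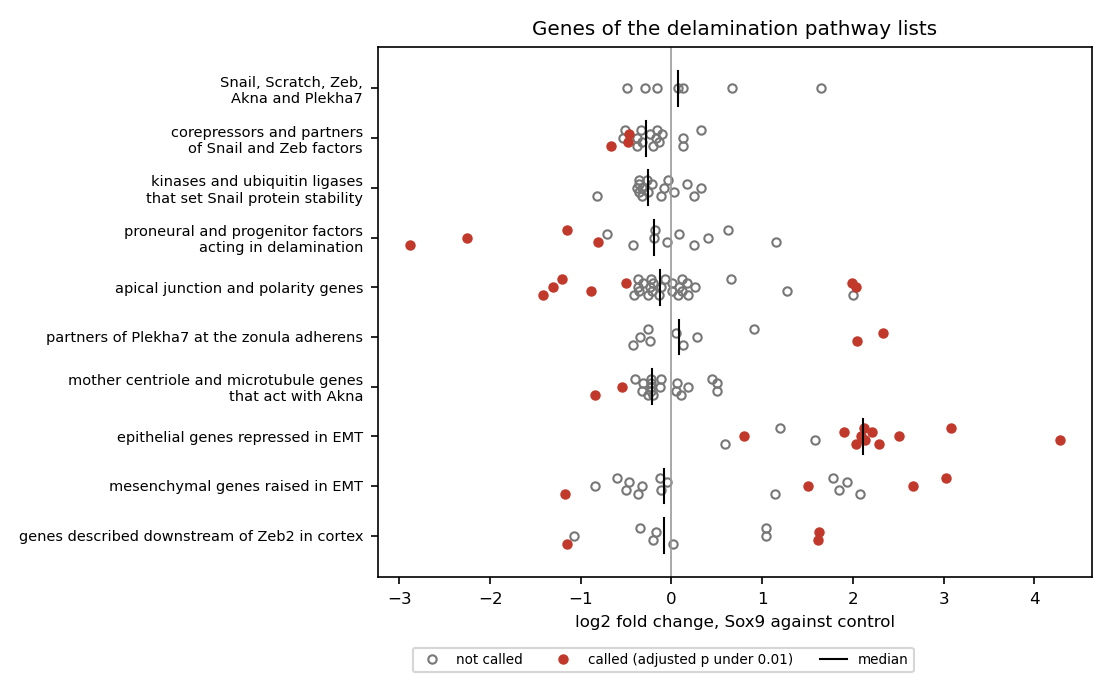
Log2 fold change, Sox9 against control (horizontal axis), of the 7 tested members (top row) and of every tested gene in the 9 lists, filled where called at an adjusted p under 0.01, with lines for medians. In the epithelial list 11 genes are filled on the right, where 9 of its 23 genes were too low to be tested and low genes could pass the filter through the Sox9 libraries alone. No member is filled.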

How the data were processed

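RNA-Seq counts from 3 control and 4 Sox9 libraries were used. The authors trimmed reads with cutadapt, aligned them to mm10 with STAR 2.5.2b and deposited raw counts per Ensembl gene. The authors also deposited FPKM, whose length was near the whole gene span for the members other than *Scrt1*. The counting program and its use of strand and introns are not given in the sources used here. The test on counts was that of edgeR 4.0.16 under R 4.3.3 (quasi-likelihood test, 2-sided, TMM, filterByExpr, no covariate), with Benjamini-Hochberg adjustment over 16522 genes and a threshold of 0.01. DESeq2 1.42.0, limma-trend (limma 3.58.1) with cyclic loess scaling, deposited FPKM (limma-trend on log2 of FPKM plus 0.01 or 0.1), other filters, a replicate block and leaving out each library were alternatives. The 95% intervals are those of the fits. Single genes were also tested by exact permutation over all 35 assignments of libraries to groups. Symbols and coordinates came from GENCODE for GRCm38, found for 36345 of 38124 genes, and promoters from RefSeq. The steps were tested on simulated counts.

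Members, lists and tests were chosen with earlier results of these data known. Every member is named. Genes named from a list were taken from those called or with the 3 smallest p-values in it, and not all of these are named. The exceptions are the untested genes of the epithelial list, which were named after their values were seen. For each tested member, the 2 genes whose centred log2 CPM were nearest over the 7 libraries are named among genes within 1 log2 CPM of its mean. The labels do not say that libraries of a group came from separate litters, so p-values measure the spread between these libraries. Reads were not counted as molecules, so floors and counting intervals cover counting error only. The totals of 4429704 to 12907778 counts set the floor of 3 counts at 0.261 to 0.629 CPM.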

Additional observations from a re-analysis of the deposited data

Results flagged for a closer look

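*Snai2* in Sox9 replicate 2, at 1.23 CPM, stood apart from the other 3 libraries of its group, which had no read. The gap to the nearest library was therefore the whole range (gap over range 1). With the others at 0, any single count gives that value, so it describes the libraries and tests nothing. It was 1 of 9 members checked in this way.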

How the results depend on the processing

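No member was called at 0.01 in either direction under any alternative that tested it, and 1 was higher at an adjusted p under 0.05. *Snai1* ranged from 0.14 (cyclic loess) to 2.19 on the log2 scale, with adjusted p from 0.0229 to 0.895, and *Zeb1* from -0.72 to -0.15 with adjusted p from 0.0177 (no filter) to 0.937 (against a 1.5-fold change). The sign of *Scrt1* turned with DESeq2 (-0.011), with cyclic loess (-0.50) and with no filter (-0.017), and ranged from -0.12 to 0.43 when a library was left out. That of *Zeb2* turned with cyclic loess (0.14), the block by descriptions (0.055), and FPKM with a pseudocount of 0.01 (0.11), of 0.1 (0.10) or without a filter (0.11), and ranged from -0.40 to 0.027 when a library was left out. *Plekha7* was -0.0088 with cyclic loess and 0.31 to 1.24 without a library. With cyclic loess and limma-trend, which change scaling and test together, list calls were 2 in place of 19 higher and 4 in place of 16 lower, and cell type marker calls 1 in place of 15 higher and 7 in place of 10 lower. A gene in more than 1 list was counted once. Levels of at least 1 per kilobase were found for 4 members by exon, 1 by FPKM and 1 by whole span. The causes were not tested. FPKM fits shifted the median of all genes by 0.21 to 0.22, and the filter at 10 counts by 0.14. With CPM of library totals, an alternative chosen after seeing the data, 0 of the 9 members had groups that did not overlap.

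Replicate numbers were not shown to pair the libraries: deviations of same-numbered libraries correlated at -0.04, 0.12 and -0.00 by titles and -0.04, 0.12 and 0.02 by descriptions. With the replicate block, 0 members were called higher and 0 lower, and 487 (titles) or 1301 (descriptions) genes were called. These fits also lack the unpaired library, Sox9 replicate 3 or 4, without which the fits with no block called 1303 and 1896 genes. *Snai1* was filtered out in both, as it was with at least 10 counts in every library and without Sox9 replicate 2, 3 or 4. *Zeb1* was -0.35 and -0.37 in the blocked fits.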

Other observations

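The counts of other cell type markers are given beside 11.3% higher and 3.43% lower among all genes tested. Markers near 0 in the controls passed the filter through the Sox9 libraries alone, so counts over tested markers do not stand for their lists. Of 7 oligodendrocyte precursor markers, 5 were tested and 4 were higher in the libraries labelled Sox9, with *Pdgfra* at 0.192 CPM in the controls and 6.33 CPM in Sox9. The astrocyte list was split, with 2 higher and 2 lower. *Aldoc* had 230 CPM in the controls and 42.6 CPM in Sox9, and *Slc1a2* 4.10 and 9.39 CPM. Of 11 radial glia markers, 6 were lower, among them *Tnc* (89.4 and 13.4 CPM) and *Fabp7* (426 and 187 CPM), and 2 of 8 intermediate progenitor markers were lower. Of 7 endothelial markers, 2 were higher, *Flt1* and *Kdr*. Of 9 microglia markers 1 was higher, *C1qa*, a share near that of all genes, and of 6 erythroid markers 1 was higher, *Hba-a2*. In the bins of low expression, from the lowest to the fourth of 10, 327, 355, 409 and 422 of about 1652 genes were called higher. With cyclic loess scaling and limma-trend, 0 of the endothelial, microglia and erythroid markers were called, and 1 of the oligodendrocyte precursor markers. None of 10 projection neuron markers passed (0 called in edgeR, 4 at an unadjusted p under 0.05, 1 called by DESeq2), nor did any of 3 interneuron markers (0 called in edgeR, 1 at an unadjusted p under 0.05, 0 by DESeq2).

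The genes whose profile over the 7 libraries was nearest to a member, by the root mean square difference of centred log2 CPM, were *Clec2h* (0.205) and *AF366264* (0.288) for *Snai1*, *Nme2* (0.0872) and *BC051142* (0.130) for *Scrt1*, and *Tceal3* (0.0949) and *Plod3* (0.0985) for *Scrt2*. For *Zeb1* they were *Litaf* (0.140) and *Ccs* (0.141), for *Zeb2* *Tmem50b* (0.149) and *Dhx15* (0.175), for *Akna* *Baz1a* (0.105) and *Mgat3* (0.127), and for *Plekha7* *Kcnh8* (0.276) and *Dab2* (0.313). They were picked from 1524 to 3686 genes of similar level, as a description with no test.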
